A study of Mus musculus with 185 samples.

Results

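Itgad, the partners it shares the beta-2 integrin chain with, and 5 genes by which microglia are recognised were followed in the brains of fasted and fed mice. The 10 genes were listed by name (Itgad, Itgam, Itgal, Itgax, Itgb2, Cx3cr1, P2ry12, Tmem119, Aif1 and Csf1r), and all 10 were found once among the 57010 genes of the count table. The list was chosen by the measured difference of Itgad between fasted and fed mice at 24 h, so every value of these 10 genes in that comparison is given here as a description and without a p-value.

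Male C57BL/6J mice of 8 weeks were studied in 2 experiments. In the 16 h study, pair-housed mice had chow, had a high-fat diet (HFD) or were fasted, with 6 mice in 3 cages per diet. In the 24 h study, single-housed mice had chow (9 mice) or were fasted (10 mice). Hypothalamus, hippocampus, superior colliculus, inferior colliculus and, at 16 h, prefrontal cortex or, at 24 h, zona incerta gave 5 RNA-seq libraries per mouse. All groups are of 1 inbred strain and 1 sex, and no group carries an engineered allele in the labels.

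The headings of the count table name the mouse of each of the 185 columns but not its brain region, so the 5 columns of each mouse were pooled, and a level is given as counts per 1000000 counts (CPM) of that pool. Totals ran from 57962237 to 161577364 counts per mouse, and 27 of the 185 columns fell under limits of depth (1000000 counts) or complexity (16000 genes expected in a draw of 500000 counts). Of the 27, 11 were of chow and 12 of fasted mice of the 24 h study. In that study, 24 libraries were sequenced apart on an SP flowcell and failed the alignment check in the labels. The paper reports no detectable RNA in that block and discarded it as defective. These libraries are among the columns pooled here, and some passed the limits. Mitochondrial genes took 3.78 to 4.98% of counts at 16 h and 8.57 to 16.7% at 24 h. Tube names of some superior colliculus libraries differ from their labels. For chow mouse 1423 the tube name is that of a fasted mouse, and for fasted mouse 1455 it is that of a chow mouse. The notes on chow mouse 1423 and fasted mouse 1454 name each other's tubes, and the study's methods state that the records of this swapped pair were corrected. The headings do not tell which columns these libraries are. The order of mice over the columns is that of the sample records, but it was not used to assign regions. Results at 24 h that rest on mice 1423, 1454 or 1455 are also given without these 3 mice.

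Beta-2 integrins are adhesion receptors of leukocytes, microglia included, made of 1 of 4 alpha subunits and the common beta-2 subunit encoded by Itgb2. The alpha subunits are CD11a (Itgal), CD11b (Itgam), CD11c (Itgax) and CD11d (Itgad), and the pairs bind ICAM proteins, complement fragments and matrix. In healthy brain, microglia are the main cells that express Itgb2 and Itgam. CD11d is known best from subsets of tissue macrophages. In GRCm39, Itgam (chr7:127661808-127717753), Itgax (chr7:127728668-127749829) and Itgad (chr7:127753548-127822988, ENSMUSG00000070369) lie in a row on the plus strand, and Itgal (chr7:126895432-126934320) lies upstream of them on the same strand.

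The promoters of the 4 genes in the list that were lower in fasted mice at 24 h and have an entry in RefSeq's table are shown because they moved together. Each stretch runs from 250 bases before to 50 bases after the RefSeq start, 5′ to 3′ on the strand of the gene. Each matched its chromosome in GRCm39 exactly once. Capitals mark GAGGAA, or TTCCTC where the motif is on the other strand. GAGGAA is a sequence bound by PU.1, the myeloid transcription factor encoded by Spi1, and shorter forms of the site were not searched. The Itgam stretch is chr7:127661562-127661861 (plus strand), Aif1 is chr17:35394979-35395278 (minus), P2ry12 is chr3:59170357-59170656 (minus) and Cx3cr1 is chr9:119897313-119897612 (minus).
Itgam: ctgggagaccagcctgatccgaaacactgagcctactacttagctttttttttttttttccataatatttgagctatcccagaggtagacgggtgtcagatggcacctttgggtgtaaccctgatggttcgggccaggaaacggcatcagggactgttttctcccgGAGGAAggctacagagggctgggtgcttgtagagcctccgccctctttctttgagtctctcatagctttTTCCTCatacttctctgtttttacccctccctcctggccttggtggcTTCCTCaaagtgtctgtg
Aif1: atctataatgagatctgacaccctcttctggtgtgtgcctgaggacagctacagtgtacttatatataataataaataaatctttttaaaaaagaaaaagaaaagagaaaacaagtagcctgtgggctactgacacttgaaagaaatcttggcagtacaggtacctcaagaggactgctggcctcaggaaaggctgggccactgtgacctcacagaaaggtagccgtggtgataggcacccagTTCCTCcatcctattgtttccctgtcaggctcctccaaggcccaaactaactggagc
P2ry12: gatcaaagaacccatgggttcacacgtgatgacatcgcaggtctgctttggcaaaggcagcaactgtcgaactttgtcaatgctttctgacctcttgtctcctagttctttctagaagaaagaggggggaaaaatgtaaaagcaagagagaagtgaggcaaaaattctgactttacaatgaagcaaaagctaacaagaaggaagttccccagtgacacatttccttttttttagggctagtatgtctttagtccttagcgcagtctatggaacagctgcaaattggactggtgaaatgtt
Cx3cr1: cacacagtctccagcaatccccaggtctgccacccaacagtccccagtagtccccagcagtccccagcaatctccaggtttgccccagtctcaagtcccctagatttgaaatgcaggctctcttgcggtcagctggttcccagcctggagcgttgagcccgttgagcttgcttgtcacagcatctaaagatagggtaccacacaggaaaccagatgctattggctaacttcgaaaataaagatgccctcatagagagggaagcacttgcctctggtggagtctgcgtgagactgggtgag

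GAGGAA was found 3 times in the Itgam stretch, once in that of Aif1, and not in those of P2ry12, Cx3cr1 or Itgax. Over all 32851 promoters of the table, 28.3% hold it on either strand. Of the longer GAGGAAGT, which contains it (3.20% of promoters), and of the full palindromic glucocorticoid response element (0.00913%), no copy was found in the 5 stretches. AGAACA, the first part of that element, was in the Itgax stretch (18.97% of promoters), and CACGTG was in that of P2ry12 (7.15%). The table has no entry for Itgad, Itgal, Itgb2 or Tmem119.

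Itgad RNA was scarce in fed mice. Mice on chow for 16 h had 0.197 to 0.382 CPM (median 0.283), which are 15 to 45 counts. Mice on HFD had 0.162 to 0.374 CPM (median 0.295). On chow in the 24 h study, levels were 0.225 to 0.971 CPM with a median of 0.248. Mouse 1423, which carries the tube name of a fasted mouse on 1 library, had the 0.971 CPM. The next highest chow mouse had 0.383 CPM. Of the 107 Itgad counts of mouse 1423, 87 came from 1 column, at 2.28 CPM. Its other columns held 9, 6, 3 and 2 counts, and the column with 6 counts was at 1.24 CPM. Whether the column with 87 counts is the library with that tube name cannot be told from the headings.

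After a 24 h fast, Itgad was at 2.07 to 5.96 CPM (median 3.96), or 233 to 662 counts per mouse. Each of the 10 fasted mice was above each of the 9 chow mice. Mean levels were 3.95 ± 1.19 CPM (SD, n = 10) in fasted and 0.344 ± 0.241 CPM (SD, n = 9) in chow mice. The log2 fold change was 3.56 (SE 0.29), an 11.8-fold difference. Without chow mouse 1423 it was 3.95, and without mice 1423, 1454 and 1455 it was 4.05.

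**Figure D1:**
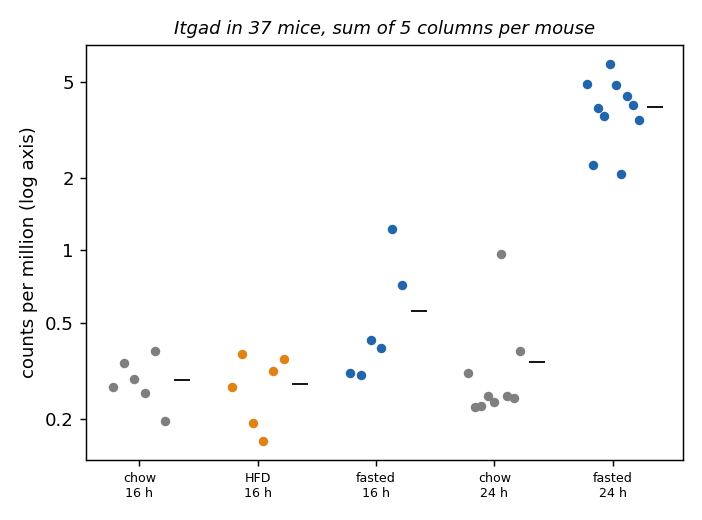
Itgad in CPM on a log axis, with 1 point per mouse and a bar at the mean of each of the 5 groups. The 10 mice fasted for 24 h sit between 2.07 and 5.96 CPM, the chow mouse at 0.971 CPM is mouse 1423, and mice 11 and 12 are the highest of the mice fasted for 16 h.

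The difference at 24 h was spread over the columns of a mouse. Among columns over the limits, the 38 columns of fasted mice had 0 to 10.4 CPM and the 34 columns of chow mice had 0 to 2.28 CPM. Of the 38 columns, 30 were above the highest chow column, which belongs to mouse 1423. Without mice 1423, 1454 and 1455, the lowest of 30 fasted columns (1.01 CPM) was above the highest of 30 chow columns (0.650 CPM). Since each mouse gave several brain regions, the higher level was present in each column that remained, whichever region it came from. The single fasted column without an Itgad count belongs to mouse 1454.

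**Figure D2:**
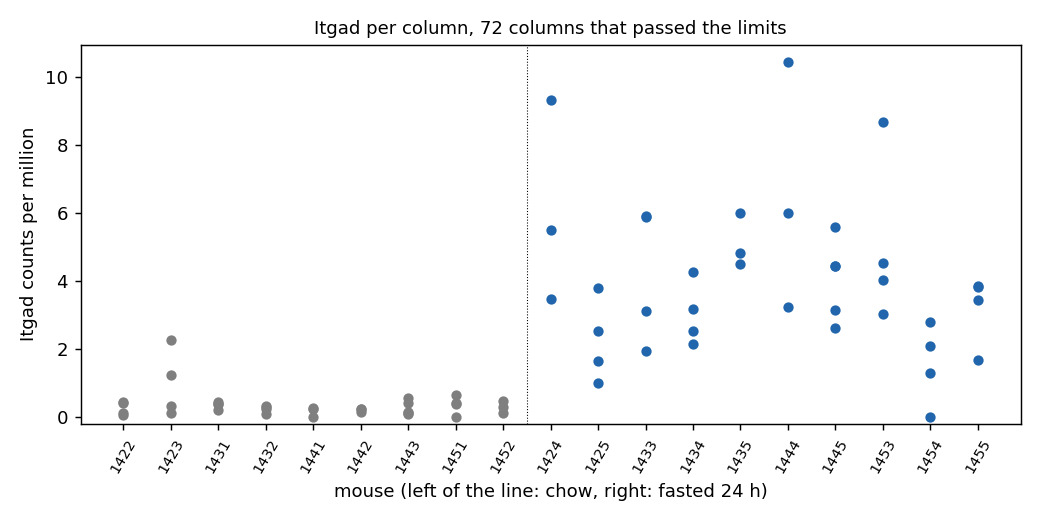
Itgad in CPM in each of the 72 columns of the 24 h study that passed the limits, by mouse, with chow mice left of the dotted line and fasted mice right of it. Apart from mice 1423, 1454 and 1455, each fasted column, from 1.01 CPM upward, lies above each chow column, which reach 0.650 CPM.

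After a 16 h fast, Itgad was at 0.304 to 1.23 CPM (median 0.410), against 0.197 to 0.382 CPM on chow. The ranges overlapped, with 4 of 6 fasted mice above the highest chow mouse. The log2 fold change was 0.93 (SE 0.32), and edgeR's quasi-likelihood test over all genes gave an unadjusted p of 0.0089 and an adjusted p of 0.579. Adjusted p over the alternatives of the analysis, which include a fit to the sums of each cage, was 0.318 at the lowest. Diet was given by cage at 16 h, while the main fit takes mice as replicates. The SE, p and intervals at 16 h may therefore understate the spread between cages. In these mice, edgeR called 0 of 29746 genes (0.0%) at an adjusted p under 0.05, 2267 (7.62%) had an unadjusted p under 0.05, DESeq2 called 19 and limma called 0.

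The 2 highest values after 16 h came from 1 cage. Mice 11 and 12 of cage 39 had 1.23 and 0.716 CPM, mice 9 and 10 of cage 38 had 0.427 and 0.393 CPM, and mice 7 and 8 of cage 37 had 0.309 and 0.304 CPM. Mice 11 and 12 changed in body weight by -7.52% and -6.49%, while the other 4 fasted mice changed by -1.30% to -2.51%. Without mouse 11, the log2 fold change was 0.56, and with the round of cages (the order of the start times of the cages of a diet in the labels) in the fit it was 0.83. In mice fasted for 24 h, body weight changed by -17.1% to -21.4%. The part of weight loss in the level of Itgad was not tested, and the difference between 16 and 24 h was not tested either, because the studies differ in housing, regions and sequencing. On HFD, Itgad differed from chow by a log2 fold change of -0.05 (SE 0.34, adjusted p = 0.970 in edgeR).

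Itgb2, the common chain with which CD11d reaches the surface, was not called. Itgb2 had 2.78 to 4.27 CPM on chow (median 3.57) and 2.80 to 3.80 CPM after the 24 h fast (median 3.28), and the ranges overlapped almost fully. Its log2 fold change was -0.09 (SE 0.08).

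Itgam, which pairs with Itgb2 to form complement receptor 3 and is the main alpha subunit of microglia, was lower after the 24 h fast. Chow mice had 1.57 to 2.66 CPM (median 2.50) and fasted mice 0.727 to 1.90 CPM (median 1.24). The log2 fold change was -0.82 (SE 0.16), and 6 of 10 fasted mice were below the lowest chow mouse, which was mouse 1423. Itgal, the subunit of LFA-1 that lymphocytes use most, had 0.348 to 0.887 CPM on chow and 0.226 to 0.538 CPM after the fast (log2 fold change -0.57, SE 0.20). Itgal was not called over all mice and was called lower without mice 1423, 1454 and 1455 (log2 fold change -0.72), with DESeq2 and with equal weight per column. With equal weight per column, the median over all genes was also lower (-0.067, against -0.0044 in the main fit). Itgax, which also marks dendritic cells, was at 0.134 to 0.455 CPM on chow and 0.118 to 0.376 CPM after the fast. Its log2 fold change was -0.22 (SE 0.23), and its 10 to 56 counts per mouse limit the precision.

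Among alpha subunits, the order of levels per kilobase of exon was different in the mice fasted for 24 h. On chow, mean levels were 0.461 CPM per kb for Itgam, 0.0885 for Itgal, 0.0762 for Itgad and 0.0562 for Itgax. In fasted mice they were 0.875 for Itgad, 0.253 for Itgam, 0.0579 for Itgal and 0.0467 for Itgax. Per mouse, Itgad made up 6.96 to 34.8% of the 4 alpha subunits on chow (median 8.20%) and 50.0 to 83.9% after the fast (median 73.1%). The 34.8% was in mouse 1423. The summed level of the 4 genes was 0.602 to 0.776 CPM per kb on chow and 0.920 to 1.57 CPM per kb in fasted mice, while that of Itgb2 was 1.10 and 0.997 CPM per kb on average. After 16 h, Itgad made up 6.98 to 12.5% on chow, 4.46 to 14.2% on HFD and 9.31 to 35.6% in fasted mice.

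Microglia are the resident macrophages of the brain, and the 5 other genes are widely used to tell them apart. Csf1r, the receptor for CSF1 and IL-34 on which microglia depend for survival, had the highest level per kilobase of exon of the 10 genes (7.35 CPM per kb on chow at 24 h). Chow mice had 42.5 to 60.3 CPM (median 55.5) and mice fasted for 24 h had 41.1 to 61.2 CPM (median 46.5). The groups overlapped, and the log2 fold change was -0.15 (SE 0.07).

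Cx3cr1, the receptor through which microglia respond to neuronal fractalkine, had 21.3 to 30.9 CPM on chow (median 27.9) and 8.52 to 27.0 CPM after the 24 h fast (median 16.5). Fasted mice varied widely, with 6 of 10 below the lowest chow mouse, and the log2 fold change was -0.64 (SE 0.18). P2ry12, a purinergic receptor that guides microglial processes towards ATP and ADP, had 13.5 to 20.1 CPM on chow (median 16.6) and 8.08 to 14.1 CPM after the fast (median 9.88). For P2ry12, 8 of 10 fasted mice were below the lowest chow mouse, and the log2 fold change was -0.64 (SE 0.11).

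Tmem119, a membrane protein used to tell microglia from other macrophages, had 7.59 to 11.8 CPM on chow (median 10.6) and 6.00 to 10.51 CPM after the fast (median 6.85). Its log2 fold change was -0.42 (SE 0.11). Aif1, which encodes the calcium-binding protein IBA1 stained for in microglial histology, had 1.71 to 3.46 CPM on chow (median 1.91) and 0.866 to 1.52 CPM after the fast (median 1.14). Each fasted mouse was below each chow mouse for Aif1, and its log2 fold change was -0.91 (SE 0.15). The high chow values rest on columns under the limits. From columns over the limits alone, chow mice had 1.51 to 2.02 CPM and fasted mice 0.498 to 1.48 CPM, still without overlap, and the log2 fold change was -0.78. In a bulk sample, fewer cells of a type and less RNA per cell cannot be told apart.

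**Figure D3:**
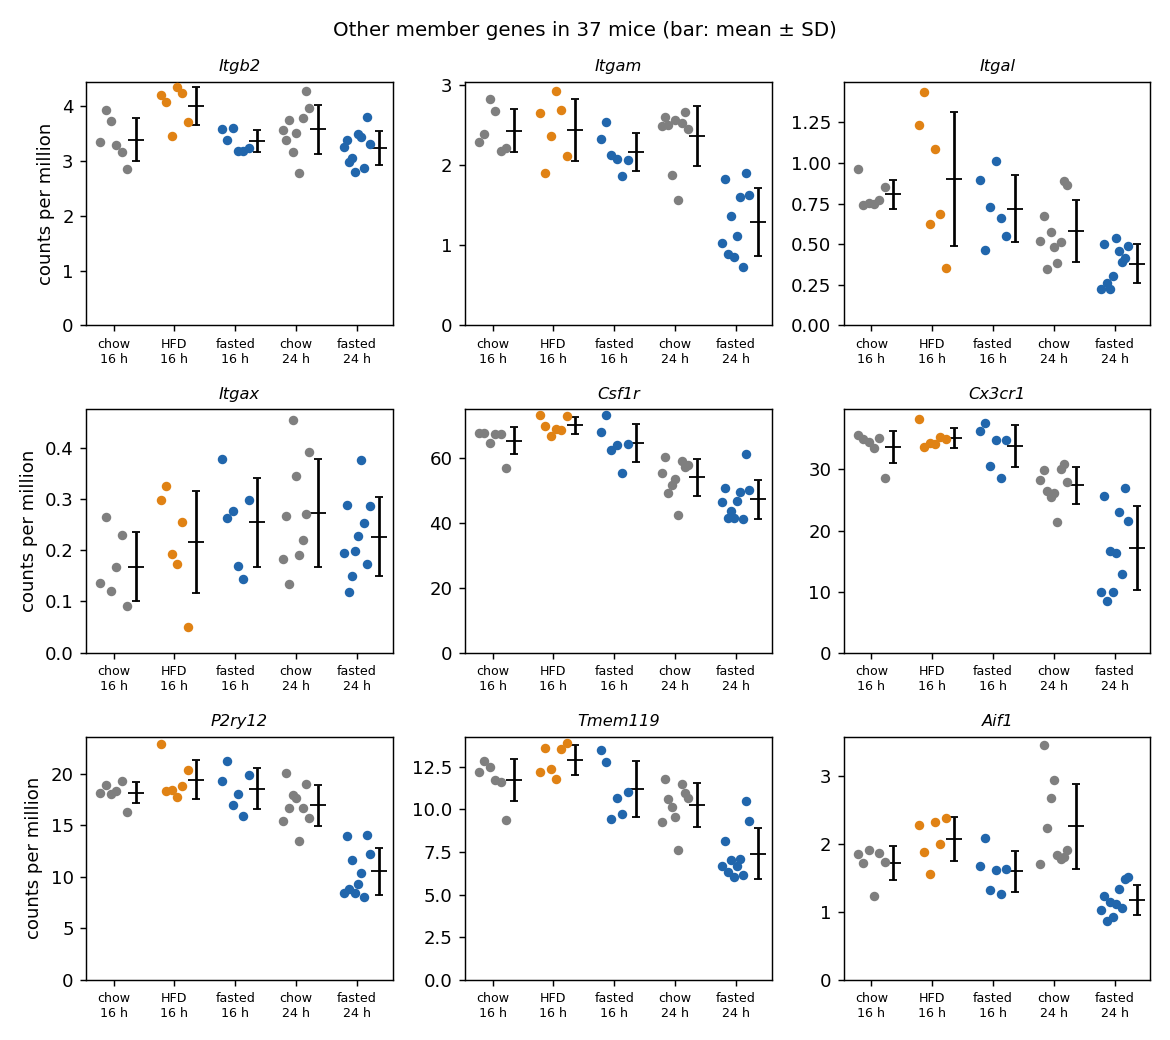
CPM of the 9 other genes in the 5 groups, with 1 point per mouse and the mean ± SD at the right of each group on axes that start at 0. After the 24 h fast, Aif1 (0.866 to 1.52 CPM) lies below the chow range (1.71 to 3.46 CPM), P2ry12, Cx3cr1, Tmem119 and Itgam shift down with overlap, and Itgb2 overlaps with chow almost fully.

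Of the 10 genes, 1 had a log2 fold change above 0 at 24 h (49.0% of all genes), and 6 passed an adjusted p under 0.05 at 24 h, Itgad as the 1 higher gene and Itgam, Cx3cr1, P2ry12, Tmem119 and Aif1 as the 5 lower genes. Over all 29011 genes tested, 11.4% passed, 5.78% higher and 5.62% lower. Ranges of fasted and chow mice did not overlap for Itgad and Aif1, and over all genes this was so for 0.714% upward and 0.586% downward. Since Itgad was listed for this contrast, nothing is read from these counts. At 16 h, 0 of the 10 genes passed for fasting or for HFD, and the ranges overlapped with chow for all 10. Over all genes they did not overlap for 0.121% upward and 0.168% downward with fasting and for 0.138% and 0.524% with HFD.

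Across mice of 1 diet in the 24 h study, Itgad did not rise with the other 9 genes. All 18 Pearson correlations of log2 CPM were below 0 (9 genes, each within chow and within fasted mice). After adjustment over the 18, 1 had an adjusted p under 0.05 for Pearson's r and 0 for Spearman's rho. That 1 was P2ry12 within chow, with r = -0.83 (exact permutation p = 0.0016, adjusted p = 0.0281) and rho = -0.77 (exact permutation p = 0.0214, adjusted p = 0.157, two-sided, n = 9). Without mice 1423 and 1451, farthest from the median of Itgad, r was -0.68. Without mice 1423, 1454 and 1455, r was -0.69 with an adjusted exact permutation p of 0.430, none of the 18 passed, and 4 of the 18 turned positive. With TMM-normalized CPM and all mice kept, r was -0.63 and 0 of the 18 passed. The call thus depends on the mice kept and on the scaling. Within fasted mice, P2ry12 had r = -0.58 (permutation p = 0.0791, adjusted p = 0.178) and rho = -0.64 (permutation p = 0.0547, adjusted p = 0.157, n = 10). Without mice 1454 and 1425, r within fasted mice was -0.64.

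Other genes that mark resting microglia showed an uneven picture at 24 h. Of 20 genes in the list, 19 were matched and tested (Fcrls was not matched), 0 rose, 8 fell and 11 did not pass the test. By comparison, 5.62% of all genes fell. Median log2 fold change of the 19 genes was -0.27, against -0.0044 over all genes, and 5 of the 19 were above 0, against 49.0% of all genes. The list was chosen with earlier results of these data known. Genes of 1 cell type also vary together from mouse to mouse, so these are not separate observations. The genes that fell the most were Olfml3, a secreted matrix protein (log2 fold change -0.72, SE 0.11, edgeR adjusted p = 0.00015), Slc2a5, the fructose transporter (-0.67, SE 0.10, adjusted p = 0.00017) and Ly86, a partner of the receptor RP105 (-0.66, SE 0.11, adjusted p = 0.00044). Sall1, Siglech, Gpr34, P2ry13 and Laptm5 also fell, by 0.28 to 0.54 on the log2 scale.

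Among genes of the list that did not pass, C1qa, C1qb and C1qc, which encode the first complement component, had log2 fold changes of 0.14, 0.23 and 0.06 (SE 0.08, 0.09 and 0.08). Ctss had 0.01 (SE 0.08) and Spi1 had -0.07 (SE 0.13). C1qa, C1qb, C1qc and Ctss are among the 5 genes of the list above 0, so they do not stand for the list. Of the 19 genes, 11 had an unadjusted p under 0.05, against 24.2% of all genes. P2ry12, Olfml3 and Aif1 thus differed by -36.0%, -39.2% and -46.7% while the complement genes had means of 15.2, 17.3 and 13.9 CPM on chow and 16.2, 19.5 and 14.1 CPM in fasted mice.

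**Figure D4:**
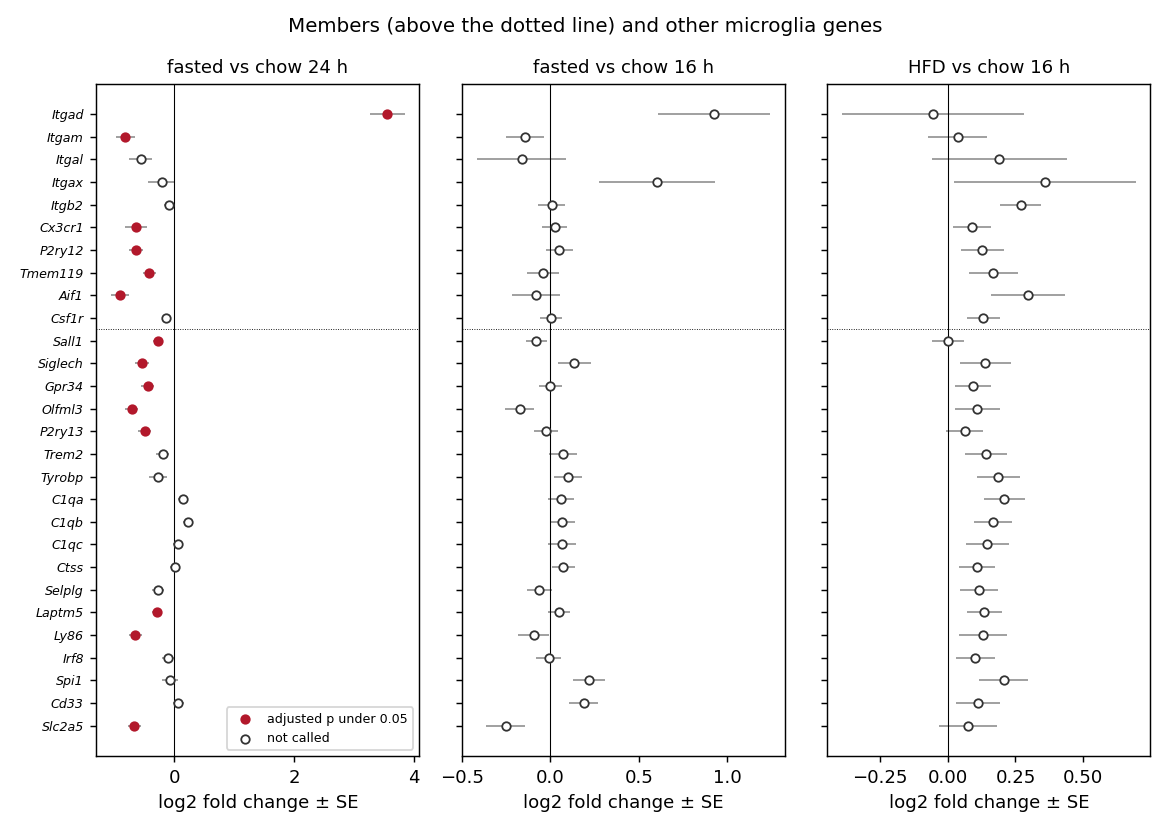
Log2 fold change ± SE of the 10 genes (above the dotted line) and of 18 of the 19 other microglia genes in the 3 comparisons, with filled points for an adjusted p under 0.05. The horizontal scales differ between panels. Itgad stands at 3.56 at 24 h where no other gene shown is above 0.23, and in the 2 comparisons at 16 h no point is filled.

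Most genes that microglia raise in disease or injury were not called. Of 20, 17 were tested, 3 rose and 0 fell, beside 5.78% of all genes that rose. Cd86, a costimulatory molecule, had a log2 fold change of 0.68 (SE 0.10, edgeR adjusted p = 8.7e-05), Fcgr3, an Fc receptor, 0.67 (SE 0.13, adjusted p = 0.0013) and Ctsd, a lysosomal protease also made by neurons, 0.21 (SE 0.06, adjusted p = 0.0365). Apoe, which astrocytes also make, was the highest of the list (log2 fold change 0.05, SE 0.06). Log2 fold changes were above 0 for 13 of the 17, against 49.0% of all genes. Their median was 0.07, against -0.0044 over all genes. The limits given for the list of resting microglia hold here too.

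Among ligands and regulators of beta-2 integrins, the genes called were lower, beside 5.62% of all genes lower and 11.4% called in either direction. Of 7 ligands tested, 0 rose and 1 fell, Icam2, an endothelial ligand (log2 fold change -0.92, SE 0.11, edgeR adjusted p = 9.0e-06). Icam1, the best known ligand, had 1.12 to 9.33 CPM in fasted mice and 1.22 to 2.59 CPM on chow (log2 fold change 0.93, SE 0.31, adjusted p = 0.0598). Icam5, a ligand on neurons of the forebrain and the highest of the list, had a log2 fold change of 0.72 (SE 0.40, adjusted p = 0.288). Of 10 genes that switch integrins to the active state, 0 rose and 2 fell, the adaptor Apbb1ip (RIAM; -0.37, SE 0.10, adjusted p = 0.0251) and the GTPase Rap1a (-0.22, SE 0.06, adjusted p = 0.0213). Talin (Tln1), which binds the tail of the beta chain, was the highest of these (-0.16, SE 0.06, adjusted p = 0.0679).

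Among 21 other integrin subunits, 1 rose and 3 fell, beside 5.78% and 5.62% of all genes. Itgav, the alpha subunit of vitronectin receptors, had a log2 fold change of 0.33 (SE 0.07, edgeR adjusted p = 0.0032). Itgb4, a laminin receptor chain, had -0.52 (SE 0.13, adjusted p = 0.0096), Itgb3 had -0.41 (SE 0.10, adjusted p = 0.0105) and Itga6, the partner of Itgb4, had -0.30 (SE 0.07, adjusted p = 0.010). Itgb8, the highest of the group, had 0.14 (SE 0.06, adjusted p = 0.134). Of Csf1, Il34, Cx3cl1 and Tgfb1, the ligands of microglial receptors, 0 of 4 passed, and the highest of them, Cx3cl1, was at 248 CPM on chow and 249 CPM after the fast.

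Markers of blood leukocytes did not rise with Itgad at 24 h. The 10 neutrophil genes summed to 0.792 to 3.61 CPM on chow and 0.947 to 2.89 CPM after the fast, with 0 of 7 tested genes called. Ly6g, which defines neutrophils, had 8 counts in all over 9 chow mice and 13 over 10 fasted mice. The 10 genes of monocytes and border macrophages summed to 10.00 to 24.4 CPM and 9.99 to 20.3 CPM, with 0 of 8 tested genes higher and 2 lower, Ccr2 (log2 fold change -1.20, SE 0.30) and Ms4a7 (-0.95, SE 0.20). The 10 T and NK cell genes summed to 2.18 to 4.43 CPM and 2.01 to 45.7 CPM, the upper value resting on Cd4, with 0 of 5 called, and Cd3e was at 0.233 and 0.198 CPM on average. The 5 B cell genes summed to 1.26 to 9.58 CPM and 1.07 to 26.8 CPM, the upper values resting on Pax5, and of 3 tested 1 fell, Cd79b (-1.08, SE 0.32). The 5 genes of red blood cells summed to 90.7 to 295 CPM and 80.6 to 199 CPM, with 0 of 5 called. Ccr2, Ms4a7 and Cd79b had under 1 CPM on average and were named after their values were seen.

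Markers of other brain cells moved in part, beside 5.78% of all genes that rose and 5.62% that fell. Of 10 endothelial and mural genes, 6 fell, most of all Tek (log2 fold change -0.77, SE 0.10), Kdr (-0.73, SE 0.11) and Cdh5 (-0.56, SE 0.09), and the summed level ran from 353 to 537 CPM on chow and from 257 to 404 CPM after the fast. Of 8 astrocyte genes, 0 rose and 2 fell, Aqp4 (-0.85, SE 0.10) and Gja1 (-0.25, SE 0.07), and of 8 oligodendrocyte genes Mobp rose (0.52, SE 0.15) and Opalin fell (-1.26, SE 0.19). Of 10 neuronal genes, 0 were called. The part of the cell makeup of the samples in the lower microglia genes was not tested.

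At 16 h of fasting, microglia genes were near their level on chow. Csf1r had 55.4 to 73.4 CPM in fasted and 57.1 to 67.7 CPM in chow mice, Cx3cr1 28.7 to 37.6 CPM against 28.5 to 35.6 CPM, and P2ry12 15.9 to 21.2 CPM against 16.3 to 19.3 CPM. For the 5 microglia genes, log2 fold changes ran from -0.08 for Aif1 (SE 0.14) to 0.05 for P2ry12 (SE 0.08). Itgam had -0.14 (SE 0.11, edgeR adjusted p = 0.780) and Itgax had 0.60 (SE 0.33, adjusted p = 0.694). The 95% interval, with mice and not cages as the unit, was -0.10 to 0.21 for P2ry12 and -0.11 to 0.16 for Cx3cr1. Log2 fold changes were above 0 for 6 of the 10 genes and 12 of the 19 other microglia genes (48.7% of all genes), and without chow mouse 6 for 3 of the 10 and 10 of the 19. Of the 19, 0 were called, 4 had an unadjusted p under 0.05, and the median log2 fold change was 0.05. Of the 17 tested genes that microglia raise in disease or injury, 16 were above 0, with a median of 0.07. In edgeR, 0 of these 17 were called and 1 had an unadjusted p under 0.05.

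On HFD, microglia genes were slightly above chow without a call. The fasted and HFD groups share the 6 chow mice. Itgb2 had 3.45 to 4.34 CPM on HFD and 2.86 to 3.93 CPM on chow (log2 fold change 0.27, SE 0.08, edgeR unadjusted p = 0.0023, adjusted p = 0.503). Csf1r had 66.7 to 73.3 CPM against 57.1 to 67.7 CPM (0.13, SE 0.06, adjusted p = 0.508), with 5 of 6 HFD mice above the highest chow mouse. Aif1 had 1.56 to 2.39 CPM against 1.24 to 1.92 CPM (0.30, SE 0.14, adjusted p = 0.508). Here edgeR called 0 of 29746 genes (0.0%), 2914 (9.8%) had an unadjusted p under 0.05, DESeq2 called 5 and limma called 0.

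Log2 fold changes on HFD were above 0 for 9 of the 10 genes and for 19 of the 19 other microglia genes, against 47.3% of all genes. Their median over the 19 was 0.11, and none was called. In edgeR, 5 of the 19 and 2 of the 5 microglia genes among the 10 had an unadjusted p under 0.05, against 9.8% of all genes. Genes of 1 cell type vary together from mouse to mouse, so these are not separate observations. Chow mouse 6 was the lowest chow mouse for Csf1r, Cx3cr1 and Tmem119, and without it 18 of 19 were above 0 with a median of 0.08. Of marker genes of other cells, 6 of 10 neuronal, 3 of 8 astrocyte, 0 of 8 oligodendrocyte and 8 of 10 endothelial and mural genes were above 0 on HFD. Genes of red blood cells were above 0 in 4 of 5 cases (median 0.33, 2 with an unadjusted p under 0.05), and those of monocytes and border macrophages in 7 of 8 (median 0.16, 1 with an unadjusted p under 0.05), both medians above that of the 19 microglia genes. The part of cell makeup and residual blood in these values was not tested.

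Genes with a pattern like that of Itgad were looked for among 17963 genes whose mean log2 CPM reached 0 in the 19 mice of the 24 h study. After the mean of each diet had been subtracted, the highest Pearson r was that of Nfkbia (0.94), an inhibitor of NF-kappa B, followed by Plin4, a lipid droplet protein (0.91), Gm44850, a long noncoding RNA (0.91), Arrdc2, an arrestin-related protein (0.89), and Dclre1b, a nuclease of telomeres (0.87). By the same measure, the 7 other genes of the list that reached this level lay between -0.64 (Itgam, 4th from the bottom) and -0.46 (Aif1). Over the 19 mice without subtraction, where the difference between diets enters, Spearman's rho was highest for Dclre1b, Rhoj, Pla2g3, Sgk3 and Htra1 (0.94 to 0.95), and was -0.91 for P2ry12 and Aif1. Without mice 1423, 1454 and 1455, r after subtraction was 0.85 for Nfkbia (2nd from the top), 0.69 for Plin4 (30th), 0.71 for Gm44850 (22nd), 0.79 for Arrdc2 (7th) and 0.76 for Dclre1b (10th), and the highest was that of Stxbp3 (0.87). Over the 7 genes of the list it then ran from -0.71 (P2ry12, 3rd from the bottom) to -0.10 (Itgb2), with Itgam 20th from the bottom (-0.53). The mice share depth and columns, and these correlations are a description.

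Genes picked by rho over the pooled mice had to differ between diets, since Itgad separates them. Of those picked after subtraction, Nfkbia went from a mean of 13.4 CPM on chow to 39.6 CPM (log2 fold change 1.61, SE 0.10), Plin4 from 10.3 to 94.4 CPM (3.27, SE 0.24) and Arrdc2 from 9.78 to 46.1 CPM (2.30, SE 0.15). At 16 h of fasting their log2 fold changes were 0.19, 0.73 and 0.36, with edgeR adjusted p of 0.630, 0.565 and 0.565.

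Genes around Itgad on chromosome 7 were examined after its level had been seen. Of 12 other genes tested within 150 kb of it, 7 were called higher, 1 lower (Itgam) and 4 did not pass at 24 h, beside 5.78% and 5.62% of all genes. Gm44850 lies within the span of Itgad on the other strand (chr7:127814788-127819960) and went from a mean of 0.427 to 4.32 CPM (log2 fold change 3.37, SE 0.39). 4931431B13Rik, also on the other strand within the span, had 2.49 (SE 0.27) at 0.0480 and 0.258 CPM. Cox6a2, a muscle-type subunit of cytochrome c oxidase on the other strand within the span, had 1.23 (SE 0.30).

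Farther away, Trim72 had a log2 fold change of 1.34 (SE 0.29), Gm15533 of 1.12 (SE 0.24), Zfp696 of 0.69 (SE 0.09) and Armc5 of 0.35 (SE 0.07). Tgfb1i1, Slc5a2 and Rusf1 did not pass, and Itgax, the nearest gene before Itgad, was not called either. Of the 4510 exon bases of Itgad, 425 are shared with exons of 4931431B13Rik, 330 with the pseudogene Gm17831, 102 with Gm39091 and 70 with Cox6a2, while Gm44850 shares none. The library kit marks strand, but which strand was counted is not given in the sources used here, so reads of overlapping genes on opposite strands may not be told apart.

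**Figure D5:**
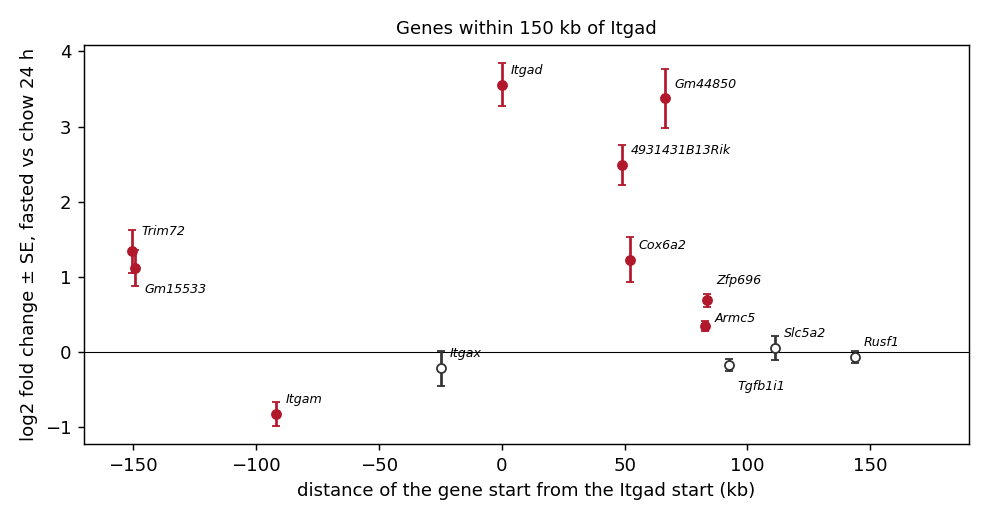
Log2 fold change ± SE between fasted and chow mice at 24 h for Itgad and 12 genes within 150 kb, by the distance of each gene's start from that of Itgad in kb, with filled points for genes that passed an adjusted p under 0.05. Itgad (3.56) and Gm44850 (3.37) are highest, and Itgam (-0.82) and Itgax (-0.22) lie below 0.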

How the data were processed

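Reads were aligned by the authors with STAR 2.7.3a to GRCm39 (bcl2fastq 2.20.0), and raw counts per Ensembl gene were deposited. Annotation release and counted strand are not given in the sources used here. Headings assigned all 185 columns to mice and none to a brain region. Columns were pooled per mouse, so deeper libraries weigh more. Symbols, positions and exon lengths came from GENCODE vM39, and promoters from RefSeq's table for GRCm38.p6. The main test was the quasi-likelihood test of edgeR 4.0.16 (R 4.3.3) after filterByExpr and TMM, with Benjamini-Hochberg adjustment over all genes and a threshold of 0.05; 1 fit held the 3 diets of the 16 h study. On simulated counts with 200 changed genes, this recovered 185 with 16 false calls among 29011 genes (24 h) and 198 with 7 among 29746 (16 h). The changed genes were above a minimum mean count and differed by at least 1 on the log2 scale, and mice were simulated as independent. These shares therefore do not give the power for smaller differences, for genes with few counts such as Itgax, or for mice that share cages.

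Alternatives were DESeq2 1.42.0, upper-quartile scaling, no filterByExpr (sum over 10), only columns of 1000000 or more counts in which a draw of 500000 would hold 16000 genes (limits set after values were seen), no mitochondrial genes, limma 3.58.1 with equal weight per column, round of cages, cage sums, and mice left out. Correlations used log2 CPM (prior count 0.5) with two-sided exact permutation for 9 mice and 100000 resamples for 10, in Python 3.11.15.

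Members and lists were chosen with earlier results of these data known. Named from each list are up to 3 genes that rose and 3 that fell the most at 24 h whose mean log2 CPM reached 0, and the gene with the highest mean CPM (not per length); further genes were named after their values were seen. A gene of the microglia list enters its counts and is not reported here by name.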

Additional observations from a re-analysis of the deposited data

Results flagged for a closer look

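Over 50 combinations of a gene and a group, 7 had a mouse that stood apart from the others of its group by its gap to the nearest mouse, where chance alone gives about 1 in 20. The combinations share mice, and genes of 1 cell type vary together, so the 7 are not separate observations and no excess is read from them. On chow at 24 h, Itgad was at 0.971 CPM in mouse 1423, with the next mouse at 0.383 CPM. On chow at 16 h, mouse 6 was the lowest for Cx3cr1 (28.5 CPM, next 33.5), Tmem119 (9.38 CPM, next 11.6) and Csf1r (57.1 CPM, next 64.8). Also on chow at 16 h, mouse 4 was the lowest for Aif1 (1.24 CPM, next 1.72). On HFD, mouse 13 was the highest for Cx3cr1 (38.3 CPM, next 35.3). Among mice fasted for 24 h, mouse 1445 was the highest for Csf1r (61.2 CPM, next 50.9), and without it Csf1r was called lower (log2 fold change -0.19).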

How the results depend on the processing

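Over 78 results, 948 of 991 values under an alternative kept their direction and their side of the threshold or, for counts, stayed within 1.5 times and, for correlations with no test, moved by under 0.1. At 24 h, with each mouse left out in turn, 6 to 7 of the 10 genes and 8 to 9 of the other microglia genes were called (the 9 without chow mouse 1432, where C1qb was called higher), and at 16 h 0 of the 10 genes for both diets and 0 of the others for fasting. The log2 fold change of Itgad at 24 h ran from 3.48 to 4.05. Equal weight per column called 9 of the 10 genes and 12 of the other microglia genes, all but Itgad lower. Under this weighting, 34.3% of all genes were above 0 with a median of -0.067, against 49.0% and -0.0044 in the main fit. The shift over all genes enters these counts of calls, so they are not read as a stronger result. Of the 18 correlations with Itgad, 2 passed with only columns over the limits, 0 with TMM-normalized CPM and 0 without mice 1423, 1454 and 1455 (added after the data were seen), where r within chow became positive for Itgal (0.44), Itgax (0.25), Itgb2 (0.29) and Csf1r (0.24). Uncalled log2 fold changes near 0 changed sign. With equal weight per column, these were Itgb2 (-0.0074) and Csf1r (-0.025) for fasting and Itgal (-0.013) for HFD at 16 h, and with cage sums Itgb2 for fasting (-0.0017). Leaving out single mice moved them, for fasting at 16 h, from -0.037 to 0.051 for Itgb2, from -0.037 to 0.044 for Csf1r, from -0.021 to 0.066 for Cx3cr1 and from -0.10 to 0.0087 for Tmem119. For HFD, the range was -0.15 to 0.066 for Itgad and -0.021 to 0.10 for Itgam. The cause was not tested. No paired analysis was possible because the animal numbers differ between diets; the round of cages was a factor in a fit at 16 h and gave 0 calls. Depth limits Itgad in fed mice and Itgax, with as few as 4 counts per mouse.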
